A study of Mus musculus with 15 samples.

Results

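The 10 genes described here, Gpr17, Itpr2, Bcas1, Enpp6, Fyn, Rras2, Tns3, Myrf, Nkx2-2 and Tcf7l2, mark oligodendrocyte precursors that have committed to differentiate and oligodendrocytes that are newly forming. They were chosen by symbol from the deposited count table, which listed 33321 genes, and all 10 were among the 16795 genes that passed the filter on low counts. RNA had been sequenced from bulk mouse corpus callosum, the white matter tract between the hemispheres, in 15 libraries that fell into 5 groups of 3. LPC-Ipsil was tissue from the site where lysophosphatidylcholine (LPC), a detergent-like lipid that strips myelin, had been injected, and LPC-Contra was the tissue on the other side. LNIO-Ipsil was tissue from the site of L-NIO, which blocks endothelial nitric oxide synthase and is used to produce a white matter stroke, and LNIO-Contra was the tissue on the other side of it. These 4 groups were taken on day 4. Sham-Ipsil, to which both injuries were compared, came from the place of a saline injection in mice with a sham operation, and the labels give it no day of its own. Strain, age, sex, dose and any allele are not given in the labels, which also do not say if the libraries within a group are from different mice, so p-values measure the spread between these libraries, which may be technical.

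Oligodendrocytes arise from dividing precursors that express Pdgfra and Cspg4. Once a precursor commits, it lowers those genes, switches on Gpr17 and then passes through a brief stage marked by genes such as Bcas1, Enpp6, Itpr2 and Tcf7l2 before it makes compact myelin. In adult corpus callosum this stage is held by few cells, and after loss of myelin it is the step through which new oligodendrocytes pass. Several of the 10 genes are also used elsewhere: Fyn by neurons, Itpr2 by astrocytes and Tcf7l2 by some neurons.

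Promoter sequences show how different the start regions of these genes are. RefSeq promoters (build GRCm38.p6, while the counts were made on GRCm39) were read for 7 of the 10 genes. None was read for Bcas1, Gpr17 and Myrf, either because no entry matched or because a chromosome was left out of the search. The 250 bases before the start are printed below for Itpr2, which passed the test against Sham-Ipsil, for Fyn and Tcf7l2, which were higher in every LPC-Ipsil library than in all the other libraries, and for Enpp6, which did neither. Capitals mark the motifs that were searched on both strands.
Itpr2: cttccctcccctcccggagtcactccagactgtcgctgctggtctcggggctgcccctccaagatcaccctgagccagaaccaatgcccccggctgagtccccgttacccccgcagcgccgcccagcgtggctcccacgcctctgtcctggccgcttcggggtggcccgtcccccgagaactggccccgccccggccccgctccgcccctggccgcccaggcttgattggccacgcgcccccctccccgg
Fyn: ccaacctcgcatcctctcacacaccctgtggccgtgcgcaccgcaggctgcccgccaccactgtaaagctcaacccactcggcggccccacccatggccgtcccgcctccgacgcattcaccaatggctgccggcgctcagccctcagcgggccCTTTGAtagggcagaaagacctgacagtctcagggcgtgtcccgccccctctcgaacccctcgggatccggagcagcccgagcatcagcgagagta
Tcf7l2: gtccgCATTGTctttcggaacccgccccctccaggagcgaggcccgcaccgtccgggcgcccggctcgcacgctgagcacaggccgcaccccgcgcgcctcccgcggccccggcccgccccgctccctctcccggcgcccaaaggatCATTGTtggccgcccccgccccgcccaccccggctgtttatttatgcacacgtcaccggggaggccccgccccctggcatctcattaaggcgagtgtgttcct
Enpp6: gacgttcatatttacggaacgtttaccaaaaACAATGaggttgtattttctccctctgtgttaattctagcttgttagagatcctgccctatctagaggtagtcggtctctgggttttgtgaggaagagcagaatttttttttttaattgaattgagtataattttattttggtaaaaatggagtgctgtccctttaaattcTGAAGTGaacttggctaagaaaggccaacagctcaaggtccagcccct

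These lie at chr6:146502224-146502473 on the minus strand for Itpr2, chr10:39369549-39369798 on the plus strand for Fyn, chr19:55741560-55741809 on the plus strand for the first of the Tcf7l2 starts listed, and chr8:46986637-46986886 on the plus strand for Enpp6. Their GC content was 74.4% for Itpr2, 67.2% for Fyn, 72.8% for Tcf7l2 and 38.4% for Enpp6, where the median over 32851 promoters of the same length was 52.4%. The Fyn promoter held the TCF/LEF letters CTTTGA 96 bases before the start. The Tcf7l2 promoter held the SOX letters ACAATG, read as CATTGT, 245 and 103 bases before the start. The Enpp6 promoter held ACAATG 219 bases and the NK2 letters CACTTNA, read as TGAAGTG, 48 bases before the start. None of the motifs was in the Itpr2 window. Over the 7 genes, 3 had a SOX motif (ACAAAG or ACAATG, in 25.2% of all promoters), 3 an NK2 motif (10.1%), 1 the TCF/LEF motif (13.8%), 1 an E-box (CAGATG or CAGCTG, 25.5%) and 0 the MYRF motif CTGGNAC (16.1%), with Tcf7l2 counted over both of its starts. The ACAAAG form of the SOX motif and the TCF/LEF motif, read on its other strand, have the bases CAAAG in common. A match is a description of these letters and not a binding site.

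All 15 libraries held the 10 genes well above the detection limit, with 108 to 10335 counts per gene and library. Library totals ran from 14896445 to 20916606 counts. Levels are given as CPM, counts scaled to a common library size with edgeR's TMM factors (0.966 to 1.06), and between genes as the authors' FPKM, which divides by gene length. Mbp and the other 17 myelin genes were detected in every library, which fits tissue labelled corpus callosum, and neuronal genes were detected too (10 genes, 5257 to 8808 summed CPM), so neuronal RNA was present as well. In bulk tissue, fewer cells of a type and less RNA per cell cannot be told apart. LPC-Ipsil replicate 3 stood apart from its group: the mean log2 level of 14 activated microglia genes over the Sham-Ipsil mean was 4.34 and 3.56 in LPC-Ipsil replicates 1 and 2 but 0.24 in replicate 3, where Sham-Ipsil replicate 1 reached 0.53. The main results that rest on LPC-Ipsil are therefore given with and without that library.

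By length-scaled level Bcas1 was the most abundant of the 10 (mean over the groups 109.7 FPKM), followed by Fyn at 29.5, Gpr17 at 24.2, Myrf at 16.2, Tns3 at 10.9, Enpp6 at 9.72, Rras2 at 6.14, Nkx2-2 at 2.95, Itpr2 at 2.25 and Tcf7l2 at 1.19 FPKM. LPC-Ipsil had the highest group mean for 9 of the 10. The exception was Bcas1, which was highest in LPC-Contra. The lowest group mean was in Sham-Ipsil for 3 genes, LPC-Contra for 3, LNIO-Ipsil for 2 and LNIO-Contra for 2. When the 5 groups were put in order for each gene, 5 of the 40 neighbouring pairs had ranges that did not overlap, and each was LPC-Ipsil against the group below it, for Gpr17, Itpr2, Fyn, Rras2 and Tcf7l2. Elsewhere in the orders the ranges of neighbouring groups overlapped. The shares of all tested genes with LPC-Ipsil highest, or with such a gap below it, were not counted. Against single groups, LPC-Ipsil lay wholly above Sham-Ipsil for 14% of all tested genes, above LPC-Contra for 7.06% and above LNIO-Ipsil for 7.61%.

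**Figure D1:**
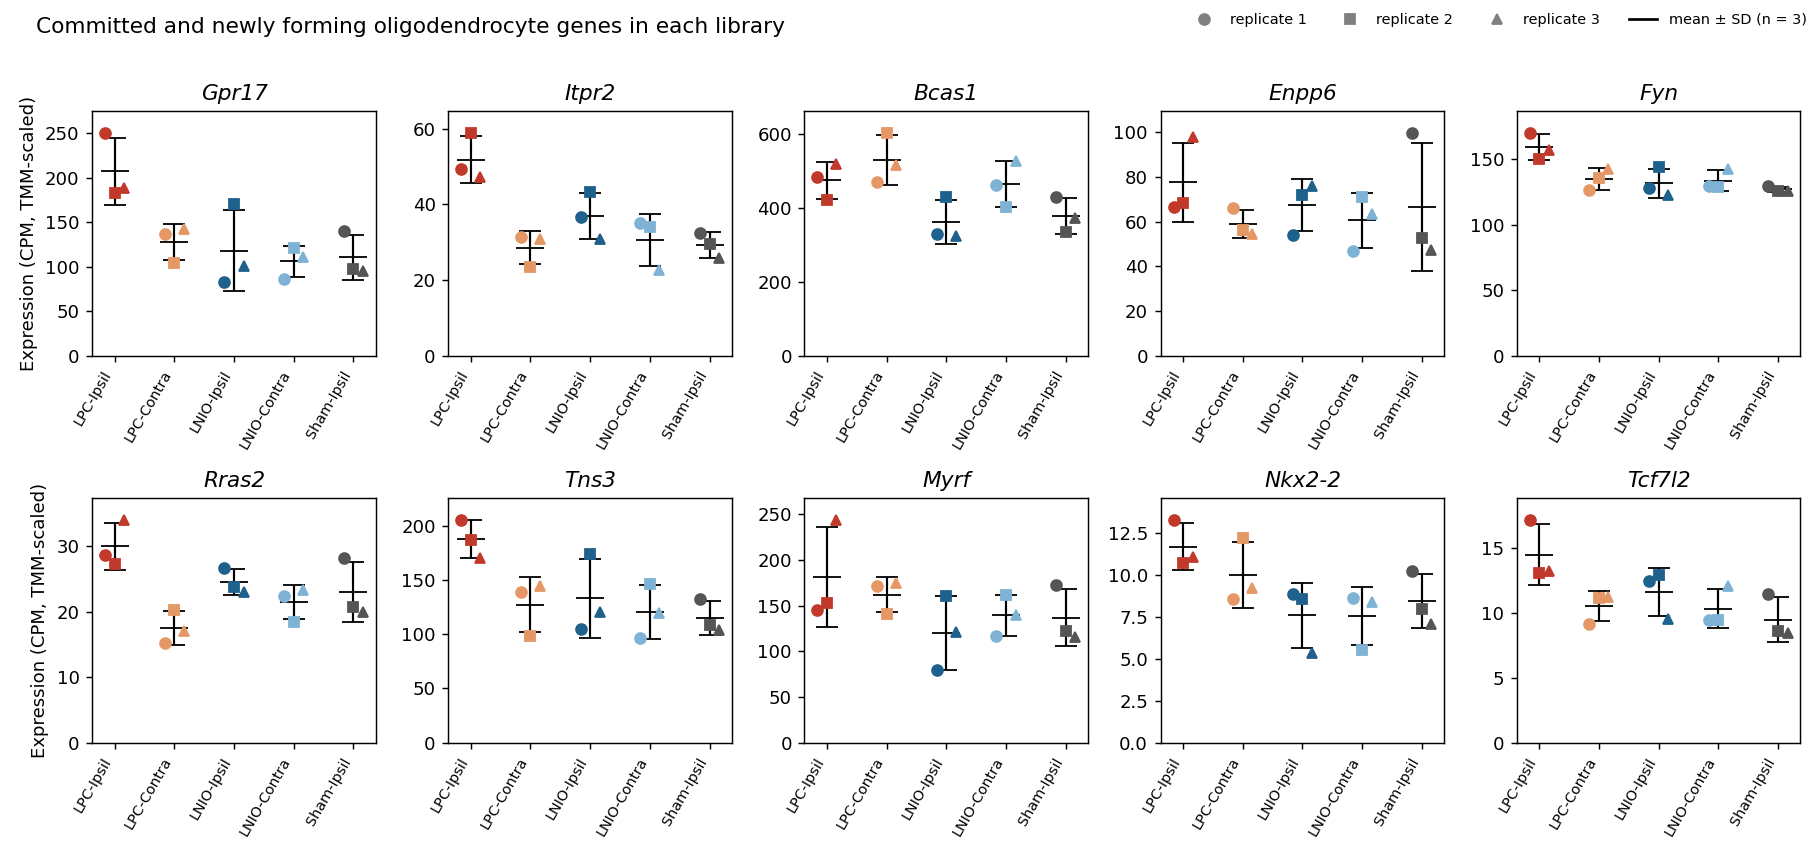
Expression (CPM, TMM-scaled, linear axes from 0) of the 10 genes in each library, with the mean and SD of 3 libraries per group; symbols give the replicate number. All 3 LPC-Ipsil libraries lie above all the others for Gpr17, Itpr2, Fyn and Tcf7l2, whereas for Bcas1 and Enpp6 none does. The share of all tested genes with LPC-Ipsil above all other libraries was not counted.

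The first genes relay signals in the cell. Gpr17 encodes a G protein-coupled receptor that appears on commitment and holds back final maturation in mice. It had 250.4, 183 and 188 CPM in LPC-Ipsil, 137, 104 and 142 CPM in LPC-Contra, 83.3, 170.1 and 101 CPM in LNIO-Ipsil, 86.8, 121 and 111 CPM in LNIO-Contra, and 139.7, 97.6 and 94.95 CPM in Sham-Ipsil. The 3 LPC-Ipsil libraries were the highest of the 15, the next being LNIO-Ipsil replicate 2, and the other 4 groups overlapped one another. Gpr17 rose 1.87-fold in LPC-Ipsil against Sham-Ipsil (95% interval 1.30 to 2.69, log2 0.90 ± 0.25 SE, edgeR adjusted p = 0.0480). That call was near the threshold: it was lost with DESeq2 size factors (adjusted p = 0.0515 in edgeR), without a filter on low counts (0.0679), with only these groups in the model (0.109) and in 11 of the 15 omissions of 1 library. Without LPC-Ipsil replicate 3 it was kept (log2 0.97, edgeR adjusted p = 0.0371). Lims2 overlaps Gpr17 on the opposite strand, and since the strand setting of the counting is not given in the sources used here, reads of the pair cannot be told apart. Lims2 was the lower of the 2 at 16.4 to 31.9 CPM, and its log2 difference in LPC-Ipsil was 0.49 ± 0.21 SE (edgeR adjusted p = 0.19). The same limit holds where antisense genes overlap Nkx2-2 (Nkx2-2os, 0.89 to 3.08 CPM), Bcas1 (Bcas1os2, 3.21 to 9.6 CPM) and Fyn (Gm16364, 0.654 to 2.73 CPM).

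Itpr2 encodes an inositol trisphosphate receptor, the channel that releases calcium from the endoplasmic reticulum. Its levels were 49.4, 58.9 and 47.2 CPM in LPC-Ipsil, 31.3, 23.5 and 30.9 CPM in LPC-Contra, 36.6, 43.3 and 30.9 CPM in LNIO-Ipsil, 35.0, 34.1 and 22.6 CPM in LNIO-Contra, and 32.5, 29.5 and 25.7 CPM in Sham-Ipsil. Again every LPC-Ipsil library was above the other 12. Itpr2 rose 1.77-fold against Sham-Ipsil (95% interval 1.36 to 2.32, log2 0.83 ± 0.18, edgeR adjusted p = 0.0245), the smallest adjusted p of the 10 genes. The call held in 10 of the 15 omissions of 1 library, among them that of LPC-Ipsil replicate 3 (log2 0.89, edgeR adjusted p = 0.00975). It was lost without Sham-Ipsil replicate 1 (0.064), 2 (0.101) or 3 (0.118) or LPC-Ipsil replicate 1 (0.134) or 2 (0.0928), and with only these groups in the model (0.109). In each of the omissions that lost it, edgeR called at most 1 gene of the whole table. Astrocytes also use Itpr2, and 2 of 9 astrocyte genes rose in the same comparison, Aldh1l1 by log2 0.66 ± 0.15 (edgeR adjusted p = 0.0256) and Gfap by 2.05 ± 0.46 (0.0270). All 9 were above the Sham-Ipsil mean in every LPC-Ipsil library, and their part in the Itpr2 result was not tested.

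Fyn encodes a Src-family kinase that relays contact with axons in oligodendrocytes. It had 170.2, 151 and 157 CPM in LPC-Ipsil, 126, 136 and 143 CPM in LPC-Contra, 128, 144 and 123 CPM in LNIO-Ipsil, 129.8, 129 and 143 CPM in LNIO-Contra, and 129.5, 125 and 126 CPM in Sham-Ipsil. The LPC-Ipsil libraries were again above all 12 others, by a small step: log2 0.33 ± 0.10 over Sham-Ipsil, 1.25-fold with an interval of 1.08 to 1.45, which did not pass (edgeR adjusted p = 0.0716). Neurons also express Fyn, and 9 of 10 neuronal genes were below Sham-Ipsil in this comparison (median log2 -0.38, 1 called lower, Nefl at -0.57 ± 0.16, edgeR adjusted p = 0.0485). The part of neurons in the Fyn values was not tested.

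Tns3 encodes tensin 3, which links integrins to the cytoskeleton. It had 205, 187 and 171 CPM in LPC-Ipsil, 139, 97.9 and 144 CPM in LPC-Contra, 105, 174 and 120.1 CPM in LNIO-Ipsil, 96.7, 146 and 119 CPM in LNIO-Contra, and 133, 108 and 104 CPM in Sham-Ipsil. LNIO-Ipsil replicate 2 lay between the LPC-Ipsil libraries, which otherwise were the highest. The log2 difference from Sham-Ipsil was 0.71 ± 0.20 (1.63-fold, edgeR adjusted p = 0.0571), without overlap between the 2 groups.

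Rras2, a small GTPase of the Ras family, had 28.6, 27.2 and 34.0 CPM in LPC-Ipsil, 15.1, 20.3 and 17.1 CPM in LPC-Contra, 26.7, 23.7 and 23.0 CPM in LNIO-Ipsil, 22.4, 18.4 and 23.3 CPM in LNIO-Contra, and 28.2, 20.8 and 19.9 CPM in Sham-Ipsil. Sham-Ipsil replicate 1 lay inside the LPC-Ipsil range and every LPC-Contra library below it. Against Sham-Ipsil the log2 difference was 0.38 ± 0.16 (edgeR adjusted p = 0.189).

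The next genes belong to the forming sheath. Bcas1 marks early myelinating cells and is the most abundant gene here. It had 484, 421 and 519 CPM in LPC-Ipsil, 469, 603 and 518 CPM in LPC-Contra, 329, 430.3 and 326 CPM in LNIO-Ipsil, 463, 403 and 526 CPM in LNIO-Contra, and 429, 334 and 372 CPM in Sham-Ipsil. LPC-Contra lay wholly above LNIO-Ipsil and Sham-Ipsil, and the other pairs of groups overlapped. The log2 difference from Sham-Ipsil was 0.33 ± 0.16 in LPC-Ipsil (edgeR adjusted p = 0.259) and 0.49 ± 0.16 in LPC-Contra (0.492).

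Enpp6 encodes a choline phosphodiesterase of newly forming oligodendrocytes that can cleave lysophosphatidylcholine, the lipid injected here. It had 66.4, 68.2 and 98.0 CPM in LPC-Ipsil, 66.2, 56.4 and 54.5 CPM in LPC-Contra, 54.1, 71.9 and 76.1 CPM in LNIO-Ipsil, 47.0, 71.1 and 63.4 CPM in LNIO-Contra, and 99.6, 52.8 and 47.3 CPM in Sham-Ipsil. The highest library of all was Sham-Ipsil replicate 1, close to LPC-Ipsil replicate 3. The log2 difference between LPC-Ipsil and Sham-Ipsil was 0.22 ± 0.26 (95% interval -0.33 to 0.77, edgeR adjusted p = 0.695), while it was 0.64 without Sham-Ipsil replicate 1, -0.034 without Sham-Ipsil replicate 3 and 0.017 without LPC-Ipsil replicate 3.

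The last 3 encode transcription factors. Myrf, the membrane-tethered factor that switches on myelin genes, had 146, 154 and 244 CPM in LPC-Ipsil, 171, 141 and 175 CPM in LPC-Contra, 79.1, 161 and 121 CPM in LNIO-Ipsil, 117, 162 and 139.5 CPM in LNIO-Contra, and 173, 122 and 116 CPM in Sham-Ipsil. LPC-Ipsil replicate 3 was far above the rest of its group, which lay within the Sham-Ipsil range. The log2 difference from Sham-Ipsil was 0.40 ± 0.25 (edgeR adjusted p = 0.405), and 0.13 without LPC-Ipsil replicate 3 (0.817).

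Nkx2-2, a homeodomain repressor of the lineage, had 13.3, 10.7 and 11.1 CPM in LPC-Ipsil, 8.56, 12.2 and 9.21 CPM in LPC-Contra, 8.86, 8.56 and 5.36 CPM in LNIO-Ipsil, 8.64, 5.53 and 8.41 CPM in LNIO-Contra, and 10.2, 7.98 and 7.09 CPM in Sham-Ipsil. The LPC-Ipsil libraries lay above those of Sham-Ipsil by a narrow gap, while LPC-Contra replicate 2 was among the highest (log2 0.47 ± 0.24, edgeR adjusted p = 0.28).

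Tcf7l2, an HMG-box partner of beta-catenin that peaks in newly forming cells, had 17.2, 13.1 and 13.2 CPM in LPC-Ipsil, 9.18, 11.2 and 11.2 CPM in LPC-Contra, 12.5, 13.0 and 9.52 CPM in LNIO-Ipsil, 9.5, 9.5 and 12.1 CPM in LNIO-Contra, and 11.5, 8.59 and 8.45 CPM in Sham-Ipsil. All 3 LPC-Ipsil libraries were above the other 12, replicates 2 and 3 only just above LNIO-Ipsil replicate 2. Its log2 difference from Sham-Ipsil was 0.61 ± 0.18 (1.53-fold, interval 1.16 to 2.01, edgeR adjusted p = 0.07).

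**Figure D2:**
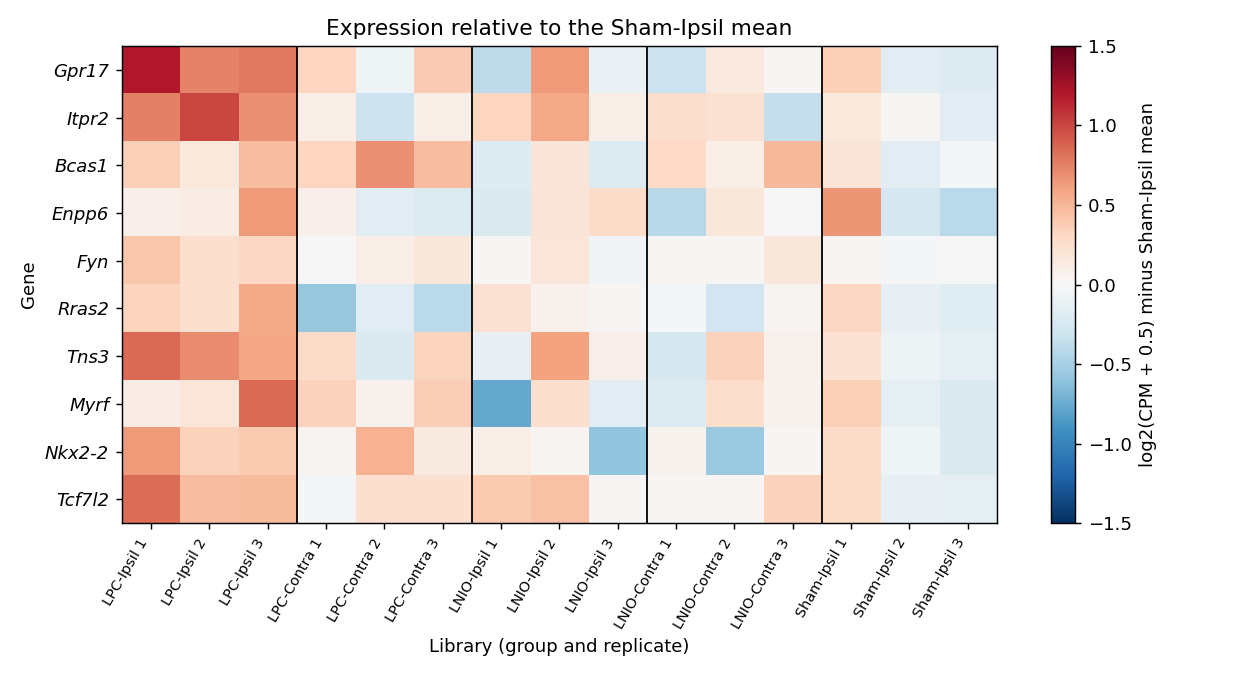
Level of each gene in each library as log2(CPM + 0.5) minus the Sham-Ipsil mean; red is above and blue below that mean, on a scale that runs to 1.5 either way. The LPC-Ipsil columns are the reddest, deepest for Gpr17 in replicate 1 and Itpr2 in replicate 2, and Sham-Ipsil replicate 1 is above the Sham-Ipsil mean for all 10 genes.

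LPC injury was compared with the sham operation to ask what differed where LPC was injected. All 10 fold changes were positive, with a median log2 of 0.44 where the median over all tested genes was 0.01. Gpr17 and Itpr2 were called (edgeR, adjusted p under 0.05), which is 2 of 10, both higher. Of all tested genes 5.19% were called and 4.19% were called higher. An unadjusted p under 0.05 was found for 6 of the 10 and for 3391 of the 16795 tested genes. For 6 genes, Gpr17, Itpr2, Fyn, Tns3, Nkx2-2 and Tcf7l2, the LPC-Ipsil libraries were all above the Sham-Ipsil ones, where 14% of all tested genes were. These were the same 6 genes without LPC-Ipsil replicate 3, where 26% of all tested genes were. DESeq2 called 5 of the 10, adding Fyn (adjusted p = 0.0155), Tns3 (0.0191) and Tcf7l2 (0.0389), where it called 8.28% of the genes it gave an adjusted p.

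The Sham-Ipsil libraries were not alike. Sham-Ipsil replicate 1 was above the group mean for all 10 genes, and the mean log2 level of the 10 over the Sham-Ipsil mean was 0.28 in that library and -0.11 and -0.17 in replicates 2 and 3. Without it the median log2 difference of LPC-Ipsil from Sham-Ipsil was 0.64, and all 10 genes had an unadjusted p under 0.05, but edgeR called 0 genes of the whole table. Without Sham-Ipsil replicate 2 or 3 the median was 0.32 and 0.28, and without LPC-Ipsil replicate 1 or 2 it was 0.44 and 0.52, each with 0 of the 10 called. Of the whole table, edgeR called 1 gene without Sham-Ipsil replicate 2 and 1 without replicate 3. It called 0 without LPC-Ipsil replicate 1 and 0 without replicate 2.

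LPC-Ipsil replicate 3 carried the 10 genes as high as the other libraries of its group while its microglial genes were near those of sham tissue. The mean log2 level of the 10 over the Sham-Ipsil mean was 0.56, 0.42 and 0.57 in LPC-Ipsil replicates 1, 2 and 3. Above every Sham-Ipsil library were 8 of the 10 in replicate 1, 6 in replicate 2 and 9 in replicate 3 (shares of all tested genes were not counted). Its activated microglia genes stood at 0.24 on the same scale and its 9 homeostatic microglia genes at 0.34, where replicates 1 and 2 had 2.68 and 2.10 for the homeostatic genes and the Sham-Ipsil libraries at most 0.53 (activated) and 0.15 (homeostatic). Within the 10 genes that library was not uniform: of the 15 libraries it had rank 1 for Rras2 and Myrf, rank 2 for Gpr17, Enpp6, Fyn and Tcf7l2, rank 3 for Itpr2, Bcas1 and Nkx2-2 and rank 4 for Tns3. Without LPC-Ipsil replicate 3 the median log2 difference from Sham-Ipsil was 0.42, 10 of 10 were positive and 3 were called, Tns3 being added (log2 0.77, edgeR adjusted p = 0.0426), while the share of all tested genes called was 9.62%. Of the others, Tcf7l2 was then at 0.67 (edgeR adjusted p = 0.0534), Nkx2-2 at 0.51 (0.273), Fyn at 0.34 (0.0919), Rras2 at 0.28 (0.370) and Bcas1 at 0.26 (0.422).

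**Figure D3:**
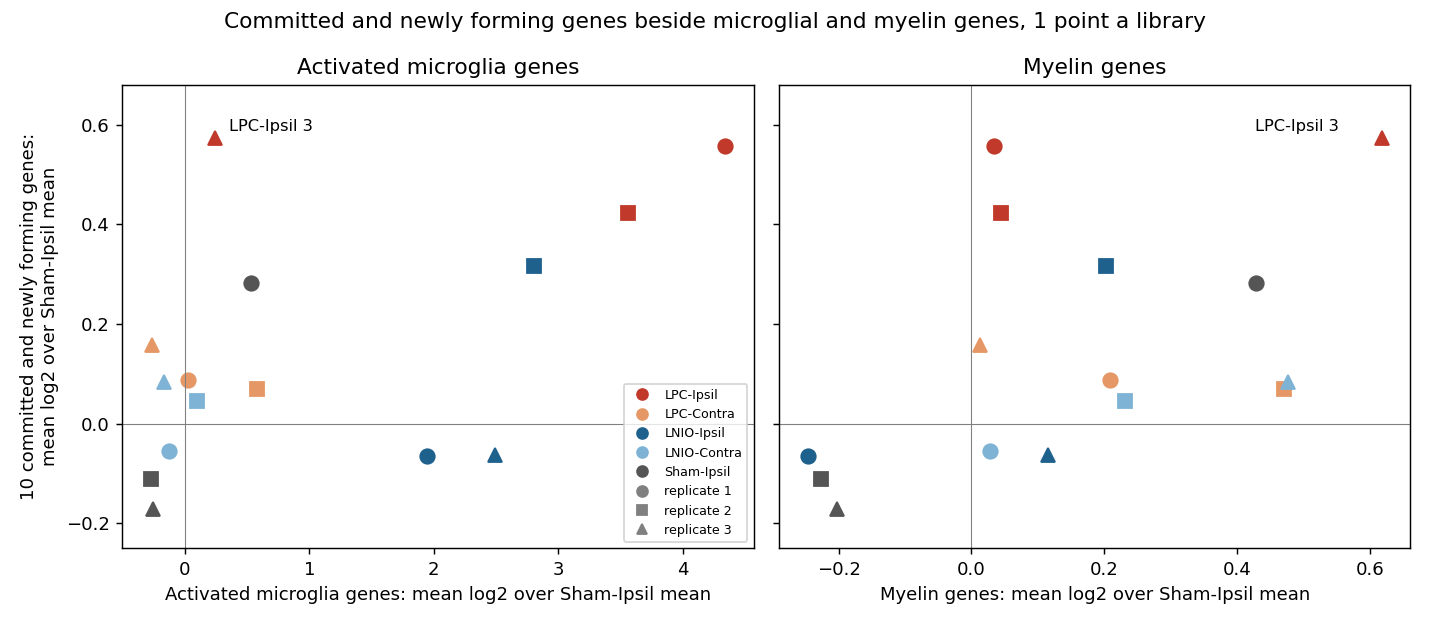
Mean log2 level of the 10 genes over the Sham-Ipsil mean (vertical) against the same for 14 activated microglia genes (left) and 18 myelin genes (right), 1 point a library, linear axes. LPC-Ipsil replicate 3 is at 0.57 for the 10 genes, at 0.24 for the microglial genes and at 0.62 for the myelin genes, while replicates 1 and 2 are at 4.34 and 3.56 for the microglial genes.

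Myelin genes moved with these values in some libraries and not in others. The mean log2 level of 18 myelin genes over the Sham-Ipsil mean was 0.03, 0.04 and 0.62 in LPC-Ipsil replicates 1, 2 and 3, and 0.43, -0.23 and -0.20 in Sham-Ipsil replicates 1, 2 and 3, so that LPC-Ipsil replicate 3 and Sham-Ipsil replicate 1 were high for both lists. The summed CPM of the 10 genes was 6.45%, 5.81% and 4.42% of the summed CPM of the myelin genes in LPC-Ipsil, and 4.32%, 5.29% and 5.18% in Sham-Ipsil. By this ratio LPC-Ipsil replicates 1 and 2 were the highest of the 15 libraries, and LPC-Ipsil replicate 3 lay within the range of the other groups. Set against the summed CPM of 11 precursor genes the 10 genes made up 142.9%, 128% and 151% in LPC-Ipsil, 128%, 114% and 112.5% in Sham-Ipsil, and the highest value, 209%, was in LPC-Contra replicate 2. In LPC-Ipsil against Sham-Ipsil 0 of 18 myelin genes were called by edgeR (2 at an unadjusted p under 0.05, median log2 0.28), and without LPC-Ipsil replicate 3 their median was 0.01 while that of the 10 genes was 0.42. The part of myelin content in the values of the 10 genes was not tested.

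Other genes of the same stage were also mostly above Sham-Ipsil in LPC-Ipsil, as were the endothelial and neuroblast genes given below. Of 19 further genes of committed and newly formed oligodendrocytes, 3 were called higher in LPC-Ipsil than in Sham-Ipsil, 17 had positive fold changes and the median log2 was 0.41. Kif19a, a kinesin, had a log2 difference of 0.93 ± 0.25 (edgeR adjusted p = 0.0427), Rap2a, a small GTPase, 0.41 ± 0.11 (0.0463) and Sirt2, a deacetylase abundant in oligodendrocytes, 0.57 ± 0.16 (0.0495), while Cemip2 at 0.60 ± 0.18 did not pass (0.0610). Without LPC-Ipsil replicate 3, 1 of the 19 was called and the median was 0.29, where 7.83% of all tested genes were called higher.

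Regulators of the lineage were called in 0 of 22 cases by edgeR, with 8 at an unadjusted p under 0.05 and a median log2 of 0.28. The nearest were Olig1 (0.62 ± 0.19, adjusted p = 0.0728 in edgeR) and Olig2 (0.51 ± 0.16, 0.0752), the factors that define the lineage, then the chromatin remodeller Chd7 (0.60 ± 0.19, 0.0849) and the repressor Zfp488 (0.73 ± 0.28, 0.152). Among 11 genes of precursors 3 were called higher: Emid1 (0.95 ± 0.20, edgeR adjusted p = 0.0243), Cspg4, the NG2 proteoglycan (1.11 ± 0.27, 0.0317) and C1ql1 (1.0 ± 0.25, 0.0344). Of 12 proliferation genes 3 were called higher, and their median log2 was 1.06, with scores of 1.44, 0.82 and 0.42 in LPC-Ipsil replicates 1, 2 and 3. Microglial genes were called higher in 13 of 14 (activated) and 9 of 9 (homeostatic) cases. Endothelial genes were above Sham-Ipsil in 6 of 6 cases (median log2 0.61), with Slc2a1, a glucose transporter, called higher (0.63 ± 0.14, edgeR adjusted p = 0.0262), and genes of neuroblasts in 7 of 7 (0.51), with the transcription factor Sox11 called higher (0.66 ± 0.16, 0.0307). Of 10 neuronal genes 9 had negative values (median log2 -0.38), and Nefl, a neurofilament gene, was called lower (-0.57 ± 0.16, edgeR adjusted p = 0.0485). All these counts stand beside a background of 4.19% of tested genes called higher. With LPC-Ipsil replicate 3 left out, where 7.83% were called higher, the counts called higher were 0 of 22 regulators (median log2 0.19), 3 of 11 precursor genes (0.35), 9 of 12 proliferation genes (1.26), 14 of 14 activated (4.28) and 9 of 9 homeostatic microglia genes (2.29), 4 of 9 astrocyte genes (0.52), 2 of 6 endothelial genes (0.71) and 1 of 7 neuroblast genes (0.53), while 5 of 10 neuronal genes were called lower (-0.52). Some of these lists were also above Sham-Ipsil on the other side. In LPC-Contra against Sham-Ipsil the median log2 was 0.18 for regulators, 0.74 for endothelial, 0.46 for neuroblast and -0.02 for precursor genes. In LPC-Ipsil against LPC-Contra these medians were 0.04, -0.09, 0.09 and 0.30 in the same order. The part of these lists in the values of the 10 genes was not tested.

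The injected side was then compared with the side contralateral to it after LPC, which asks what differed within the model. By edgeR 0 of the 10 genes were called, as were 0% of all tested genes, with 6 of the 10 and 2036 of all genes at an unadjusted p under 0.05. DESeq2 called 2 of the 10, Itpr2 (adjusted p = 0.00157) and Rras2 (0.0023), where it called 3.67% of genes. For 7 genes, Gpr17, Itpr2, Enpp6, Fyn, Rras2, Tns3 and Tcf7l2, LPC-Ipsil lay above LPC-Contra without overlap, where 7.06% of all tested genes did. The same 7 did so without LPC-Ipsil replicate 3, where 16.9% of all tested genes did. Of the 10 fold changes 9 were positive, and their median log2 was 0.43 where that of all tested genes was 0.01.

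Itpr2 differed by 0.86 ± 0.18 on the log2 scale (1.81-fold, 95% interval 1.39 to 2.37, edgeR adjusted p = 0.0629) and Rras2 by 0.78 ± 0.16 (1.71-fold, interval 1.35 to 2.17, 0.0629). The LPC-Contra libraries were among the lowest of the 15 for Rras2, interleaved only with LNIO-Contra replicate 2 and Sham-Ipsil replicate 3. Gpr17 differed by 0.70 ± 0.24 (edgeR adjusted p = 0.208), Tns3 by 0.56 ± 0.20 (0.223), Tcf7l2 by 0.46 ± 0.18 (0.292), Enpp6 by 0.39 ± 0.26 (0.623) and Fyn by 0.24 ± 0.10 (0.323). Smaller still were Nkx2-2 at 0.23 ± 0.23 (edgeR adjusted p = 0.796) and Myrf at 0.16 ± 0.25 (0.889), and Bcas1 alone had a negative value, -0.16 ± 0.16 (0.782). Without LPC-Ipsil replicate 3, Myrf was at -0.12 and Enpp6 at 0.19, and Itpr2 (log2 0.92, edgeR adjusted p = 0.00963) and Rras2 (0.67, 0.0309) were called, where 5.55% of all tested genes were.

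In the same comparison 0 of the 19 further genes of the stage were called by edgeR, with 8 at an unadjusted p under 0.05 and a median log2 of 0.29. Cemip2 came nearest (0.67 ± 0.18, edgeR adjusted p = 0.0727), then Kif19a (0.83 ± 0.24, 0.114), Rap2a (0.38 ± 0.11, 0.115) and 9630013A20Rik, a long noncoding RNA gene of committed precursors (1.09 ± 0.34, 0.142). Myelin genes had a median log2 of 0.06 between these sides, with 0 of 18 at an unadjusted p under 0.05. In the fit without LPC-Ipsil replicate 3, 0 of the 19 (median log2 0.32) and 0 of the 18 myelin genes (-0.20) were called.

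**Figure D4:**
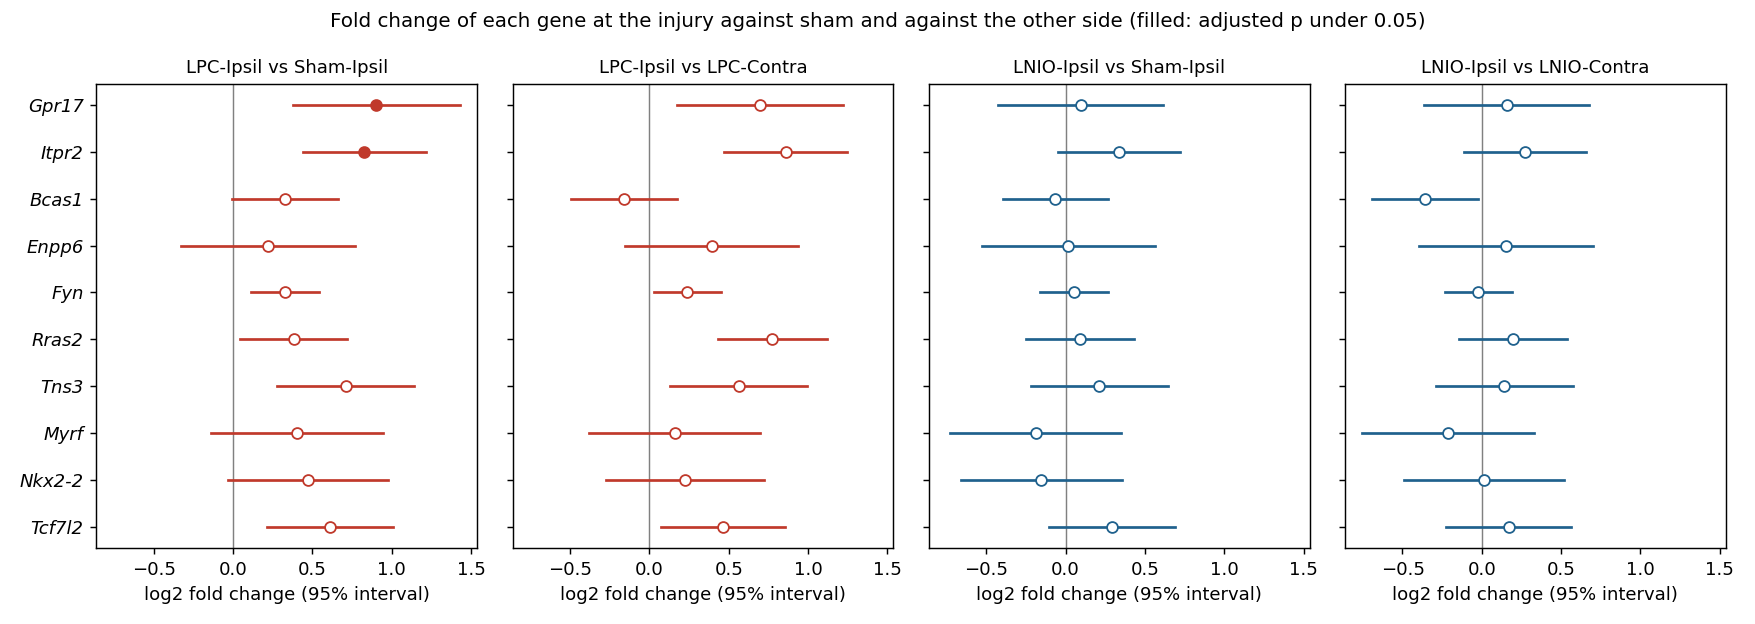
Log2 fold change of each gene with its 95% interval, at each injection site against Sham-Ipsil and against the contralateral side; filled points have an edgeR adjusted p under 0.05. Gpr17 (0.90) and Itpr2 (0.83) in LPC-Ipsil against Sham-Ipsil are the only filled points of the 40, and every interval for the L-NIO site includes 0 except that of Bcas1 against LNIO-Contra.

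At the L-NIO site, compared with sham to ask what white matter stroke changed, no difference in the 10 genes passed the test on day 4. In LNIO-Ipsil against Sham-Ipsil edgeR called 0 of the 10 and 0% of all tested genes, with 0 of the 10 and 1489 of all genes at an unadjusted p under 0.05, and DESeq2 called 0 of the 10 and 1.26% of genes. The ranges overlapped for all 10, where 10.1% of all tested genes lay wholly higher and 7.86% wholly lower, 7 fold changes were positive, and the median log2 was 0.07. Itpr2 had the highest value, 0.34 ± 0.18 (95% interval -0.05 to 0.72, edgeR adjusted p = 0.644), then Tcf7l2 at 0.29 ± 0.18 (0.724) and Tns3 at 0.21 ± 0.20 (0.836). Gpr17 stood at 0.09 ± 0.24 (interval -0.43 to 0.62, edgeR adjusted p = 0.95), Rras2 at 0.09 ± 0.16 (0.923), Fyn at 0.05 ± 0.10 (0.93) and Enpp6 at 0.02 ± 0.26 (0.992). Below 0 were Bcas1 at -0.06 ± 0.16 (edgeR adjusted p = 0.947), Nkx2-2 at -0.15 ± 0.24 (0.913) and Myrf at -0.19 ± 0.25 (0.893). The intervals reached up to 1.53-fold for Gpr17 and 1.65-fold for Itpr2.

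The 3 LNIO-Ipsil libraries were spread. Replicate 2 was above every Sham-Ipsil library for 6 of the 10 genes, replicate 1 for 2 and replicate 3 for 0, and replicates 1 and 3 were each below every Sham-Ipsil library for 3. LNIO-Contra replicates 1, 2 and 3 were above for 3, 2 and 3 genes and below for 3, 2 and 1. The shares of all tested genes were not counted for single libraries. For Gpr17, Itpr2, Fyn, Tns3 and Tcf7l2 the highest library outside LPC-Ipsil was LNIO-Ipsil replicate 2. Activated microglia genes stood at 1.94, 2.80 and 2.49 on the log2 scale over Sham-Ipsil in LNIO-Ipsil replicates 1, 2 and 3, while the 10 genes stood at -0.06, 0.32 and -0.06.

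Against LNIO-Contra, edgeR and DESeq2 each called 0 of the 10 in LNIO-Ipsil, where edgeR called 0% of all tested genes, DESeq2 called 1.14%, and 1021 genes had an unadjusted p under 0.05 in edgeR. Bcas1 was the 1 gene of the 10 at an unadjusted p under 0.05, with a log2 difference of -0.36 ± 0.16 (edgeR adjusted p = 0.77), and LNIO-Ipsil replicate 2 lay within the LNIO-Contra range. The other 9 ran from -0.21 ± 0.25 for Myrf to 0.27 ± 0.18 for Itpr2, none of them at an unadjusted p under 0.05. Same-numbered libraries of these groups deviated together, and with that pairing as a block edgeR called 20 genes and 0 of the 10, with 0 of the 10 at an unadjusted p under 0.05. Within the 3 pairs Itpr2, Enpp6 and Tns3 were higher in LNIO-Ipsil each time and Myrf was lower each time, where 16.2% of all tested genes were higher in all 3 and 17.7% lower.

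The contralateral sides were also set against Sham-Ipsil. In LPC-Contra edgeR called 0 of the 10 where 0.00595% of all tested genes were called, and DESeq2 called 0 of the 10 and 0.2% of genes. Bcas1 (0.49 ± 0.16, 1.40-fold) and Rras2 (-0.39 ± 0.16, 0.76-fold) had an unadjusted p under 0.05, as did 1624 of all tested genes. The values were edgeR adjusted p = 0.492 for Bcas1 and 0.5 for Rras2. Bcas1 was the 1 gene without overlap between the groups, where 7.06% of all tested genes lay wholly higher. The other 8 ran from -0.17 ± 0.26 for Enpp6 to 0.24 ± 0.24 for Nkx2-2. In LNIO-Contra edgeR called 0 of the 10 and 0% of all tested genes, 0 of the 10 and 457 of all genes had an unadjusted p under 0.05, and DESeq2 called 0 of the 10 and 0.00803% of genes. Values there ran from -0.17 ± 0.24 for Nkx2-2 to 0.29 ± 0.16 for Bcas1. All 4 comparisons with Sham-Ipsil share its 3 libraries, and the comparisons that include LPC-Ipsil share that group, so their values are not independent.

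The 2 injury sites were compared directly to ask whether the genes differed between the L-NIO and the LPC site. By edgeR 0 of the 10 were called in LNIO-Ipsil against LPC-Ipsil, and 0% of all tested genes, with 7 of the 10 and 1409 of all genes at an unadjusted p under 0.05, and DESeq2 called 0 of the 10 and 0.0951% of genes. All 10 fold changes were negative, with a median log2 of -0.44 where that of all tested genes was -0.04. For 6 genes LNIO-Ipsil lay wholly below LPC-Ipsil, where 7.61% of all tested genes did. These were Gpr17 at -0.81 ± 0.25 on the log2 scale (edgeR adjusted p = 0.522), Nkx2-2 at -0.62 ± 0.24 (0.559), Itpr2 at -0.49 ± 0.18 (0.559), Tcf7l2 at -0.32 ± 0.18 (0.63), Rras2 at -0.29 ± 0.16 (0.617) and Fyn at -0.27 ± 0.10 (0.559). Myrf at -0.59 ± 0.25, Tns3 at -0.50 ± 0.20, Bcas1 at -0.39 ± 0.16 and Enpp6 at -0.20 ± 0.26 overlapped. Without LPC-Ipsil replicate 3, 0 of the 10 were called by edgeR, where 1.41% of all tested genes were, 5 had an unadjusted p under 0.05, 7 lay wholly below LPC-Ipsil (21.2% of all tested genes did), Myrf was at -0.30 and Enpp6 at 0.014.

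The difference between sides after L-NIO minus that after LPC was tested as 1 interaction term. EdgeR called 0 of the 10 and 0% of all tested genes, with 2 of the 10 and 171 of all genes at an unadjusted p under 0.05, and DESeq2 called 0 of the 10 and 0% of genes. All 10 estimates were negative (median log2 -0.33). Itpr2 at -0.59 ± 0.26 (95% interval -1.13 to -0.04) and Rras2 at -0.58 ± 0.23 (-1.06 to -0.10) were those at an unadjusted p under 0.05, and Gpr17 was at -0.54 ± 0.35 (-1.28 to 0.20). When LPC-Ipsil replicate 3 was left out the median was -0.30, all 10 were negative, 1 had an unadjusted p under 0.05 and edgeR called 0 of the 10 and 0% of all tested genes.

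Across the 15 libraries the 10 genes moved together to different degrees, which is given as a description because the libraries share groups. Over the 45 pairs the median Pearson r of log2 CPM was 0.54, from -0.077 for Itpr2 with Bcas1 to 0.955 for Gpr17 with Tns3, and 2 pairs were negative. Against the mean of the other 9, Gpr17 had r of 0.90, Fyn 0.87, Tcf7l2 0.81 and Tns3 0.81, while Enpp6 had 0.53, Rras2 0.52 and Bcas1 0.40. Outside the 10, among the 8 genes whose profile was most like the mean profile of the 10, of 14104 genes averaging at least 1 on the log2 CPM scale, were Sema4d (r = 0.944), Rap2a (0.936), Pea15a (0.921), Kif19a (0.917), Fam107b (0.917), Limd1 (0.917) and Slc44a1 (0.910).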

How the data were processed

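Whole-number counts per gene symbol and FPKM, which the authors scaled by gene length and library size, were deposited for the same 15 libraries. Per the submitters' processing notes HISAT2 2.2.1, GRCm39 and R 4.4.2 were used. The counting program and its strand setting are not given in the labels or headers. Columns were matched to libraries by name (0 unmatched), 0 rows named no gene, and 74 symbols were repeated. Replicates were not copies of one library (chi-square per degree of freedom 10.1 to 63.7).

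Counts were tested in R 4.3.3 with edgeR 4.0.16 (robust quasi-likelihood, TMM, filterByExpr with a minimum count of 10 and a minimum total of 15), with 1 model over all 15 libraries, no block and Benjamini-Hochberg adjustment over 16795 genes. Genes were called at an adjusted p under 0.05. SE is the size of the log2 fold change over the square root of F. The common dispersion was 0.0453. The test was checked on simulated data. DESeq2 1.42.0, its size factors in edgeR, no filter, a replicate block, only the groups compared and omission of each library were alternatives. Scores are means of log2(CPM + 0.5) over the Sham-Ipsil mean.

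The members and the gene lists were chosen with earlier results of these data known. Up to 4 genes per list, those with the smallest adjusted p, were named, and 8 by likeness. Lists were tested for nothing beyond counts and medians. The labels name no batch. Replicate numbers in the titles of LNIO-Ipsil and LNIO-Contra paired libraries by the data alone (correlation of deviations 0.62, 0.37 and 0.24 for numbers 1, 2 and 3), and with that block 0 of the 10 genes were called. Of the 8 genes chosen for their likeness to the mean profile, 1 is not reported here.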

Additional observations from a re-analysis of the deposited data

How the results depend on the processing

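With all 15 libraries edgeR called 871 genes and 2 of the 10 in LPC-Ipsil against Sham-Ipsil. DESeq2 size factors and the replicate block each left 1 of the 10, with the counts over all genes not given here. Without a filter on low counts the numbers were 524 genes and 1 of the 10. With only the groups compared they were 0 and 0, and with DESeq2 1471 and 5. For LNIO-Ipsil against Sham-Ipsil (0 genes) they were 1 without the filter, 1 with the replicate block, 378 with only the groups compared and 230 with DESeq2. For LPC-Contra against Sham-Ipsil (1 gene) the replicate block and only the groups compared gave 0 and DESeq2 28. For LNIO-Contra against Sham-Ipsil (0) the replicate block gave 1, no filter 1, only the groups compared 3 and DESeq2 2. For LPC-Ipsil against LPC-Contra (0) DESeq2 called 669 genes and 2 of the 10, and a replicate block within each model, an alternative chosen after seeing the data, 87 genes and 1 of the 10, Itpr2. For LNIO-Ipsil against LNIO-Contra (0) only the groups compared gave 359, DESeq2 186 and the block within each model 20, and for LNIO-Ipsil against LPC-Ipsil (0) no filter gave 1 and DESeq2 16. Except for LNIO-Ipsil with LNIO-Contra, same-numbered libraries did not all correlate above 0.1 (LPC-Ipsil with LPC-Contra -0.056, 0.16 and 0.34), so the block says nothing firm about pairing. The replicate block over all 15 libraries changed 1 call of the 10, that of Gpr17 in LPC-Ipsil against Sham-Ipsil (edgeR adjusted p = 0.0722). The cause of these shifts was not tested.

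Leaving out 1 library at a time, LPC-Ipsil against Sham-Ipsil gave 0 to 1646 genes and 0 to 4 of the 10 (the 4 without LPC-Contra replicate 2, which added Fyn and Tns3), LNIO-Ipsil against Sham-Ipsil 0 to 398 genes, LPC-Contra against Sham-Ipsil 0 to 2, LPC-Ipsil against LPC-Contra 0 to 950 and 0 to 2 of the 10, LNIO-Ipsil against LNIO-Contra 0 to 380, and LNIO-Ipsil against LPC-Ipsil 0 to 241. Without LPC-Contra replicate 2, edgeR called 7.07% of all tested genes in LPC-Ipsil against Sham-Ipsil, where 5.19% were called with all 15 libraries. The highest counts of genes came without LPC-Ipsil replicate 3, apart from the 2 for LPC-Contra against Sham-Ipsil, which came without LPC-Contra replicate 3.

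Of 430 values of the 10 genes under other settings 418 kept their sign and call, 5 lost a call, 6 gained one and 1 changed sign (Nkx2-2 in LNIO-Ipsil against LNIO-Contra, -0.0026 with the replicate block). Of 1200 with a library left out 1128 kept both, 16 lost a call, 6 gained one and 50 changed sign, 0 of them called. The log2 ranges that crossed 0 were as follows. In LPC-Ipsil, Enpp6 ran from -0.034 to 0.64 against Sham-Ipsil and Myrf from -0.12 to 0.29 against LPC-Contra. In LNIO-Ipsil against Sham-Ipsil, Gpr17 ran from -0.24 to 0.31, Bcas1 from -0.19 to 0.046, Enpp6 from -0.21 to 0.44, Rras2 from -0.030 to 0.28, Tns3 from -0.010 to 0.36, Myrf from -0.43 to 0.040 and Nkx2-2 from -0.29 to 0.057. In LPC-Contra against Sham-Ipsil, Itpr2 ran from -0.14 to 0.094 and Enpp6 from -0.40 to 0.24. In LNIO-Contra against Sham-Ipsil, Gpr17 ran from -0.17 to 0.14, Itpr2 from -0.047 to 0.23, Enpp6 from -0.34 to 0.28, Rras2 from -0.20 to 0.072, Tns3 from -0.091 to 0.20, Myrf from -0.096 to 0.23, Nkx2-2 from -0.28 to 0.016 and Tcf7l2 from -0.0070 to 0.28. In LNIO-Ipsil against LNIO-Contra, Gpr17 ran from -0.18 to 0.36, Fyn from -0.071 to 0.034, Tns3 from -0.081 to 0.30, Myrf from -0.46 to 0.019 and Nkx2-2 from -0.17 to 0.22, and in LNIO-Ipsil against LPC-Ipsil Enpp6 ran from -0.30 to 0.014. Each of the 10 genes had 108 counts or more in every library, and each group had only 3 libraries, which limits the precision.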
